A study of Mus musculus with 2 samples.

Results

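The MyoD family comprises the myogenic factors Myod1 (MyoD), Myf5, Myf6 (also called MRF4) and Myog (myogenin), and its members were taken as every probe set whose single gene symbol in the platform annotation is one of these names. This gave 5 probe sets for 4 genes, of 34945 probe sets for 18193 genes with a single symbol. Myod1 was read by 2 probe sets and each other member by 1. The signals come from diaphragm skeletal muscle of C57/BL6 mouse embryos at stage E18.5 (late gestation), hybridised to 1 Affymetrix array for the wild-type genotype, RP58+/+, and 1 for the knockout, RP58-/-. RP58, now named Zbtb18, is a zinc finger repressor that binds a subset of E boxes. The sources used here do not state how many embryos gave each RNA sample, their sex or how the RP58 allele was disrupted, and no other allele or treatment is named for either group. The extraction label speaks of a culture, but the tissue label and the design text name dissected muscle. The comparison asks how the 4 factors differ between the genotypes. Arrays are named by these labels throughout. Neither genotype had a replicate, so there is no test, no p-value and no check of any difference against the spread between embryos.

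MyoD family proteins are basic helix-loop-helix (bHLH) transcription factors that pair with ubiquitous E proteins and bind E boxes in the promoters and enhancers of muscle genes. Myf5 and Myod1 are known as determination factors of myoblasts, Myog as the factor that starts fusion and differentiation, and Myf6 as a factor of both early progenitors and mature fibres, where it is the most abundant member in adult muscle. Id proteins lack the basic region and keep E proteins from pairing with the family. RP58 is known as a target of MyoD that represses Id genes in myoblasts.

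Values are RMA signals on a log2 scale, as deposited, and a difference is the RP58-/- array minus the RP58+/+ array. The arrays had medians of 6.02 (RP58+/+) and 6.03 (RP58-/-), so differences are relative to the typical gene, whose difference was -0.003. A gene was counted as lower or higher when its difference reached 1.5-fold (0.58). The floor on mean signal was the 40th percentile of all probe sets (5.52), and the brightest of a gene's probe sets stood for the gene. As the only repeat measurement, probe sets of the same gene differed with a pooled SD of 0.28 over 5675 genes. This SD leaves out embryos, dissection and hybridisation. The labels could not be checked on the targeted gene, since the 1 probe set of Zbtb18 read 8.91 on the RP58+/+ array and 9.21 on the RP58-/- array, and its place relative to the disrupted part is not given. The arrays also differed in the X-linked Xist (11.47 and 6.96) and the Y-linked Eif2s3y (3.59 and 8.58), so genotype label and sex-linked signal cannot be told apart. The 24 probe sets of poly-A control RNAs had a median difference of -0.75, all below 0. Scaling to these spike-ins would raise every difference by 0.75 and the median gene to 0.74, so each direction given here is relative to the median gene.

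Myf6 and Myf5 were lower on the RP58-/- array, and Myod1 and Myog were close to equal on both arrays. Of the 4 members, 2 counted as lower by the size rule and 0 as higher, while 6.51% of 14093 genes above the floor were lower and 3.83% higher. At 2-fold the count of members was again 2 lower and 0 higher, beside 2.31% and 0.908% of genes. Myf6 was lower by 5.51-fold and Myf5 by 3.84-fold. The differences of Myod1 (-0.18) and Myog (0.09) were smaller than that SD of 0.28, and under the spike-in scaling they would read 0.57 and 0.84. Over the 4 members the median difference was -1.06, which joins a pair of low values to a pair near 0 and so describes no single member.

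Myf5, the earliest factor of the family to be expressed in the embryo, had a signal of 7.04 on the RP58+/+ array and 5.10 on the RP58-/- array. The RP58-/- signal lay under the floor, so Myf5 stayed above the floor through the array where it was high, and the size of its difference of -1.94 is uncertain. Taken as a ratio of signals, the RP58-/- array had 26.0% of the RP58+/+ level. Among genes above the floor, the difference of Myf5 was the 57th from the lowest. Of 3381 probe sets whose mean signal lay within 0.25 of that of Myf5, 4 were at least as low, Myf5 included (0.118%).

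Myod1, the other determination factor, had signals of 7.25 and 7.07 on its brighter probe set on the RP58+/+ and RP58-/- arrays. The array RP58-/- was at 88.1% of the RP58+/+ level, and 27.1% of genes above the floor had a lower difference. The other probe set read 3.97 and 3.47, both under the floor. Its difference of -0.50 also lay within 1.5-fold. Only the brighter probe set of Myod1 could therefore be read.

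Myog, the factor needed for myoblasts to become fibres, had signals of 9.13 on the RP58+/+ array and 9.22 on the RP58-/- array. The level on the RP58-/- array was 106% of the RP58+/+ level. Of 14093 genes above the floor, 36.0% had a higher difference than Myog.

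Myf6, the member known for mature fibres, had the widest gap of the 4. Its signal was 10.24 on the RP58+/+ array and 7.78 on the RP58-/- array, both above the floor. The difference of -2.46 was the 18th lowest among 14093 genes, and the RP58-/- array had 18.1% of the RP58+/+ level. Of 1425 probe sets within 0.25 of its mean signal, 9 were at least as low, Myf6 included (0.632%). Among 289 genes read by several probe sets within 0.5 of that mean signal, differences within a gene had an SD of 0.24.

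**Figure D1:**
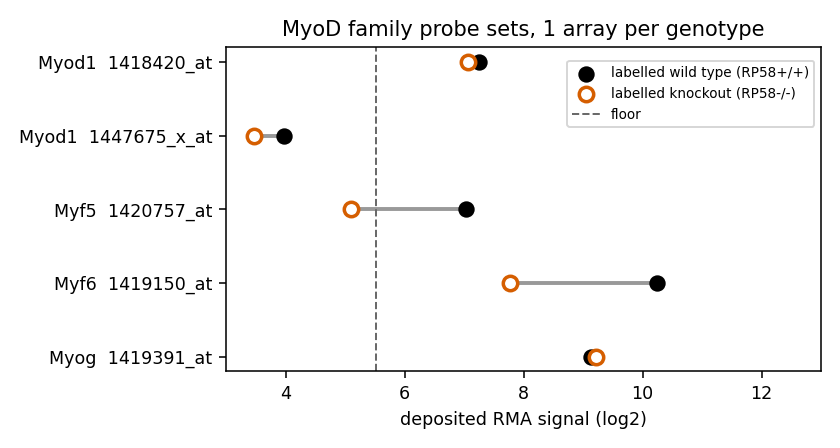
Deposited RMA signals (log2, x axis) of the 5 MyoD family probe sets (y axis) on the RP58+/+ array (filled) and the RP58-/- array (open), with the floor on mean signal at 5.52 as a dashed line. The 2 points lie far apart for Myf6 (10.24 and 7.78) and Myf5 (7.04 and 5.10) and nearly coincide for Myog and for the brighter probe set of Myod1.

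Signals of different probe sets cannot be ranked against each other as levels, so the members were compared through the gap between their differences, which no common scaling of an array alters. Relative to Myog, Myf6 was 5.86-fold lower on the RP58-/- array than on the RP58+/+ array. Relative to Myod1, Myf6 was 4.86-fold lower and Myf5 3.39-fold lower. Relative to Myog, Myf5 was 4.09-fold lower, and both values for Myf5 rest on a RP58-/- signal under the floor. The differences of Myf5 and Myf6 lay 0.52 apart and those of Myod1 and Myog 0.27 apart. A ratio within an array shows unequal differences and not that either gene was constant.

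**Figure D2:**
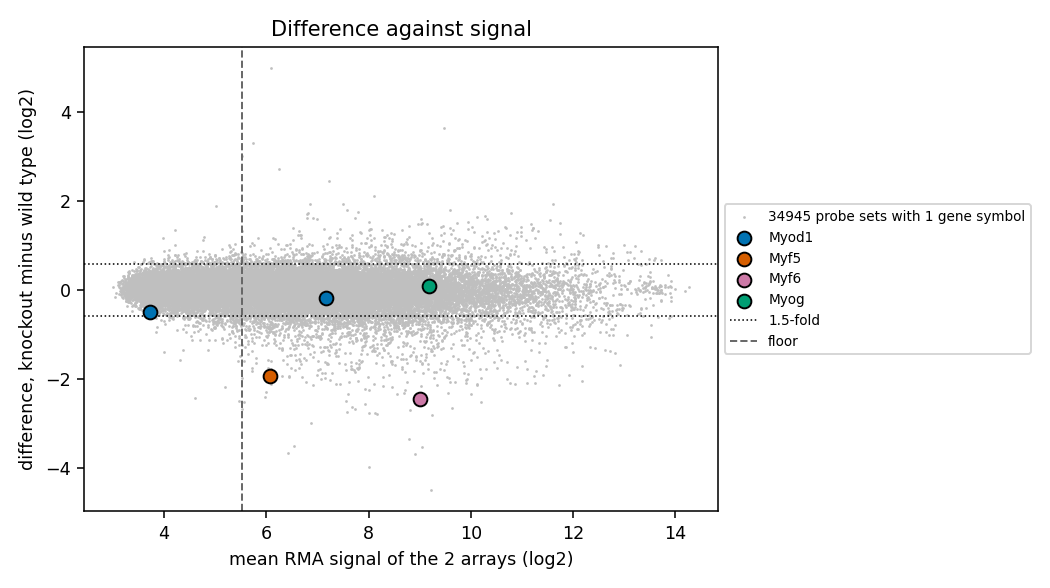
Difference (log2, knockout minus wild type, y axis) against mean signal of the 2 arrays (log2, x axis) for 34945 probe sets with a single gene symbol in grey and the 5 MyoD family probe sets in colour. Myf6 (-2.46) and Myf5 (-1.94) lie below the bulk of probe sets of their signal, and Myog (0.09) and Myod1 (-0.18) lie within it; the spike-in scaling would raise all points by 0.75.

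The promoters of Myog and Myf5 are shown because the first belongs to a member whose signal was nearly equal on both arrays and the second to a member whose signal was low on the RP58-/- array. That of Chrna1, the acetylcholine receptor alpha subunit gene and a textbook target of the family, is shown as an example of clustered E boxes. RefSeq promoter windows (GRCm38.p6) were at hand for 2 of 4 members, Myog and Myf5, and not for Myod1 and Myf6. Each line gives the 250 bases before the transcript start, 5′ to 3′ on the gene's strand, and capitals mark any match to the motifs searched. The Myf5 line lies inside the RefSeq gene span, whose 5′ end is at chr10:107486927, so its start is not the outermost annotated 5′ end. Myog lies at chr1:134289754-134290003 (+), Myf5 at chr10:107486135-107486384 (-) and Chrna1 at chr2:73580339-73580588 (-).
Myog: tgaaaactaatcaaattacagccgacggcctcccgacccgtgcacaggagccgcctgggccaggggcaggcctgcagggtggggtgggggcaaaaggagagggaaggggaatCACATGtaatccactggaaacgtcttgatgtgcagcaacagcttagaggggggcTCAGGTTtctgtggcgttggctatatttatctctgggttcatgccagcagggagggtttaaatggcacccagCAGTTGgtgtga
Myf5: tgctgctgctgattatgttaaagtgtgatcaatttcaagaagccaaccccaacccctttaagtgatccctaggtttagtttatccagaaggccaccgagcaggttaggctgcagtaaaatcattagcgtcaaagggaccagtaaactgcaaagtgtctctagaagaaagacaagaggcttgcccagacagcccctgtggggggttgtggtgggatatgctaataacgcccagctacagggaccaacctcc
Chrna1: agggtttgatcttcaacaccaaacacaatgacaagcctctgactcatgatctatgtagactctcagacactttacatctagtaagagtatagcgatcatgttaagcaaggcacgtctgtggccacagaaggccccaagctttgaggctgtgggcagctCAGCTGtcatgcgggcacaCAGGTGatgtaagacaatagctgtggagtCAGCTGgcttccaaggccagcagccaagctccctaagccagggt

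The motifs were searched on both strands of the whole window, which runs on to 50 bases after the start. They were the E box (CANNTG), its subtype CATCTG, the RP58 core (ACATCTG, which contains that subtype), the MEF3 core (TCAGGTT), the TATA box (TATAAA) and the MEF2 box (YTAWWWWTAR). In the MEF2 pattern Y is C or T, W is A or T and R is A or G. The Myog window held 2 E boxes, which begin at positions -138 and -12 from the start, and a MEF3 core at -84. The Myf5 window held no E box and no MEF3 core, and its only match was a TATA box at 21 bases after the annotated start. Of 32851 windows of this length in the table, 72.3% held at least 1 E box, 4.07% a MEF3 core, 13.6% a TATA box, 17.2% the CATCTG subtype, 4.43% the RP58 core and 3.19% a MEF2 box. Neither member's window held the CATCTG subtype, the RP58 core or an exact match to this MEF2 pattern. The Myog stretch ctatatttat differs from the MEF2 pattern only in its last base and was not counted. Among textbook targets of the family, 38 of 41 windows (92.7%), from 31 genes, held an E box. Some genes gave several windows, and 5 of the 41, some overlapping and each with an E box, belong to Zbtb18 itself. The Chrna1 window held 3 E boxes, at -92, -73 and -44. A match describes letters in a window and is no measure of binding.

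**Figure D3:**
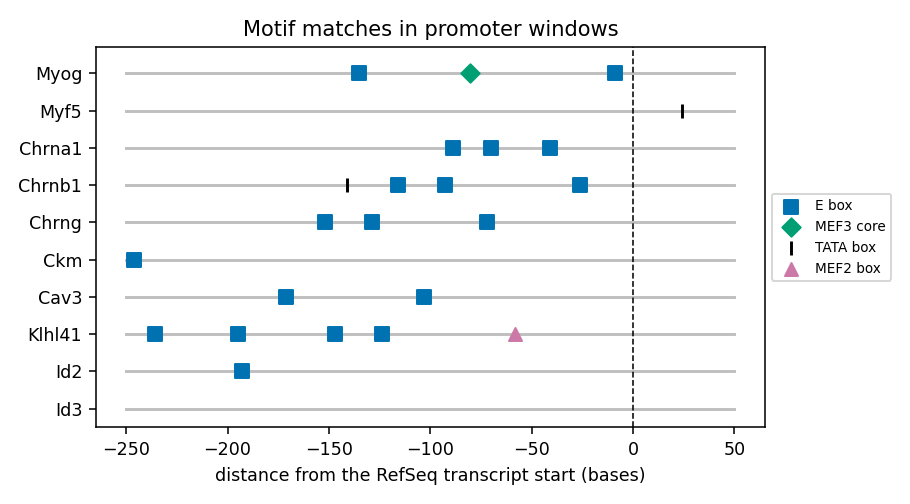
Motif matches in the promoter windows of 2 MyoD family members, 6 textbook targets and 2 Id genes; the x axis is the distance in bases from the RefSeq transcript start and each symbol is 1 match. The Myog line carries 2 E boxes and a MEF3 core, the Myf5 line a TATA box only, and the lines of Chrna1, Chrnb1 and Chrng 3 E boxes each.

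In the gene order of RefSeq (GRCm38.p6), Myf5 and Myf6 are direct neighbours, with 0 listed genes between them, whereas Myod1 and Myog lie on other chromosomes. The measured genes around the Myf5 and Myf6 pair were near 0. Lin7a, a polarity protein gene, differed by 0.01, Ppp1r12a, a myosin phosphatase subunit gene, by -0.04, Pawr by 0.10 and 4930532I03Rik, under the floor, by -0.22. Of these, only Lin7a was close, at 58 kb, while Ppp1r12a lay 667 kb, Pawr 837 kb and 4930532I03Rik 880 kb away. The listed genes between Myf6 and Ppp1r12a were not measured. Both low members of the family share a locus whose 4 nearest measured genes, mostly distant, were within the size rule.

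Around Myog, Mybph, 89 kb away, was lower by the size rule, with signals of 8.67 and 7.07 on the RP58+/+ and RP58-/- arrays (-1.60). Other listed genes lie between Mybph and Myog. Mybph encodes a myosin-binding protein of the H type. The neighbour of Mybph, Chil1, was at 0.03, and Ppfia4 and Tmem183a on the other side of Myog were at -0.19 and -0.14. Around Myod1, Ush1c, 138 kb away, was just past the size rule (0.59, from 7.58 to 8.16). Otog was at 0.34, the potassium channel gene Kcnc1 at -0.09 and Sergef at -0.06. Of the 12 flanking genes, 1 was lower and 1 higher, with 4930532I03Rik under the floor. Of all genes above the floor, 6.51% were lower and 3.83% higher, so these counts are near those shares.

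**Figure D4:**
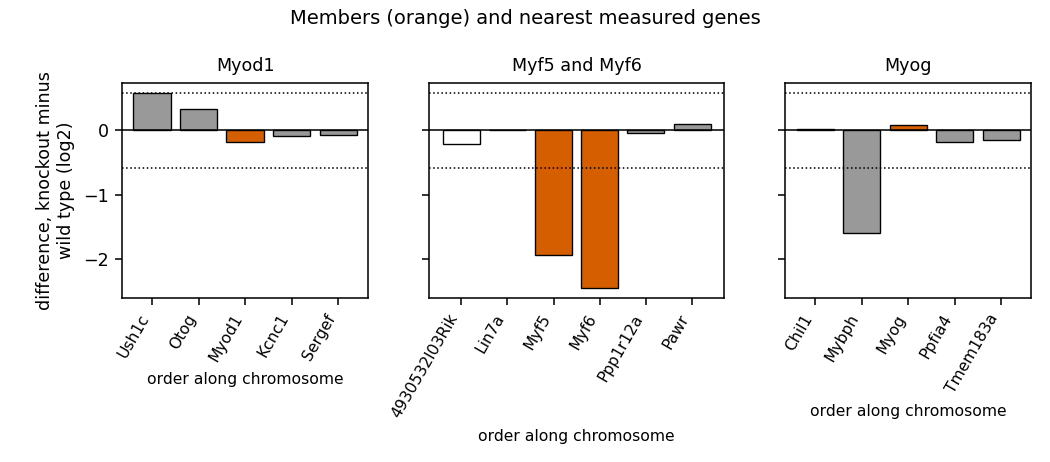
Difference (log2, knockout minus wild type, y axis) of the members (orange) and the 2 nearest measured genes on each side in chromosomal order (grey; white where the mean signal lay under the floor), with dotted lines at 1.5-fold. The Myf5 and Myf6 bars at -1.94 and -2.46 stand between measured genes from -0.22 to 0.10, which lie 58 to 880 kb away. Before Myog at 0.09, the nearest measured gene is Mybph at -1.60, which lies 89 kb away. The spike-in scaling would raise each bar by 0.75.

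The genes whose pair of signals lay nearest to that of a member were found by Euclidean distance over the 2 arrays, which describes likeness of probe set signals and not of mRNA levels. For Myf6 these were Thrsp (distance 0.05), Pga5 (0.09) and Tcap (0.22), the titin cap gene of the Z-disc, and no other gene lay within 0.25 of it among those above the floor. For Myf5 they were Anxa10 (0.12), Plaat1 (0.13) and Chrna9 (0.14), and 4 genes lay within 0.25, with the RP58-/- signal of Myf5 under the floor. For Myod1 the nearest genes were Nup43, Wdyhv1 and Ttc14, each at a distance of at most 0.02, and 695 genes lay within 0.25. Those nearest to Myog were Got1l1, Scn3b and Parp1, and 365 genes lay within 0.25.

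The genes of the E proteins, the dimer partners of the family, had smaller differences that went both ways. Of 3 genes, 1 was lower and 0 higher, beside 6.51% and 3.83% of all genes above the floor. Tcf4 was lower at its brightest probe set, with signals of 9.70 and 9.03 (-0.67), and its 5 probe sets above the floor ran from -0.71 to -0.03. Averaged over them, 0 of the 3 genes was lower. Tcf12 had signals of 9.96 and 9.59 (-0.36), and its 4 probe sets above the floor ran from -0.36 to 0.07. Tcf3, which encodes E12 and E47, had signals of 7.17 and 7.57 (0.40).

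Among genes of inhibitors and E box competitors, 0 of 16 above the floor were lower and 2 (12.5%) were higher, with a median of 0.06. Of all genes above the floor, 6.51% were lower and 3.83% higher. Both higher genes encode Id proteins. Id3 had signals of 9.22 and 9.99 (0.78) and Id1 of 8.39 and 9.05 (0.67). Id2 had signals of 9.50 and 9.75 (0.25) on its brightest probe set and 8.19 and 8.83 (0.63) on another, and Id4 was at 0.02. The other inhibitors lay from -0.42, for Msc (MyoR), to 0.46, for Sim2. Sim2 was above the floor only through the RP58-/- array (5.43 and 5.89), so its difference is uncertain. Mdfi (I-mfa), which holds MyoD family proteins in the cytoplasm, was at 0.19. On the same arrays 13 of 18 liver, 4 of 8 lung epithelium and 5 of 12 mesothelium markers were higher and 0 lower, and their part in the Id signals was not tested.

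Of the regulators upstream of the family, 3 of 16 (18.8%) were lower and 0 higher, beside 6.51% and 3.83% of all genes above the floor. Their median was -0.02. Tbx1, a T-box factor of branchiomeric muscle, had signals of 7.91 and 6.11 (-1.80), and Eya4, a transcriptional coactivator gene, 6.74 and 5.56 (-1.19). The RP58-/- signal of Eya4 was barely above the floor of 5.52. Its other probe sets lay under the floor, with differences from -0.32 to -0.03. Meox2, a homeobox factor of limb muscle, had 9.22 and 8.49, with both probe sets at -0.74. The receptor gene Met, used by migrating precursors, was at 0.28, and Pax3 and Pax7, factors of muscle progenitors, at 0.10 and 0.31. Six4, a homeobox gene, had -0.19 at the brightest probe set but -1.60 at a second, whose RP58-/- signal lay under the floor (6.36 and 4.76), and with probe sets averaged 4 of 16 regulators were lower. None of the 16 had, at its brightest probe set, a difference as low as that of Myf5 or Myf6.

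Among Mef2 factors and cofactors, 2 of 18 (11.1%) were lower and 0 higher, beside 6.51% and 3.83% of all genes above the floor. Their median was 0.00. Smarcd3, which encodes the BAF60C subunit that brings chromatin remodelling to MyoD sites, had signals of 8.71 and 7.46 (-1.24). Mef2c, a partner of the family and also its target, had signals of 9.91 and 8.94 (-0.97), and its 5 probe sets ran from -1.34 to -0.79. Mapk14 (p38 alpha kinase) was at -0.27. As with the upstream regulators, all 18 lay above Myf5 and Myf6.

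Textbook targets of the family were lower in part. Of those listed, 20 of 38 above the floor were lower and 0 higher, beside 6.51% and 3.83% of all genes. The list median was -0.59 (0.15 under the spike-in scaling), and the list includes Zbtb18 itself (0.30). Caveolin 3 (Cav3), a membrane protein of fibres, had signals of 10.42 and 8.27 (-2.14), and Klhl41, a sarcomere assembly factor gene, 10.56 and 8.58 (-1.98). The fast troponin genes Tnnt3 and Tnni2 were at -1.72 and -1.69, while Cdkn1c (p57), a cell cycle inhibitor gene, was at -0.02. Of 10 targets that also stand in the fibre list, 8 were lower, and of the 28 others, 12. The acetylcholine receptor genes split: Chrna1 and Chrnb1 were each at -0.86, Chrng at -0.02 and Chrnd at 0.05. Myf6 was lower than all 38 targets and Myf5 lower than 36 of them, while Myog exceeded 34 and Myod1 29.

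Fibre genes, which belong to the labelled tissue, had high signals on both arrays, among them skeletal actin Acta1 (13.95 and 13.36) and muscle creatine kinase Ckm (13.53 and 12.11). Liver markers were also bright on both arrays, among them albumin, Alb (14.23 and 14.30). The fibre signals therefore show muscle RNA in both samples, but not muscle alone. Of 30 fibre genes, 26 were lower and 0 higher, beside 6.51% and 3.83% of all genes above the floor. Their median was -1.68, in a range from -3.69 (Pvalb) to -0.21 (Tnnt1). Myf6 lay below 28 of the 30, all but Pvalb and Mybpc2. Myf5 lay below 22. Myod1 and Myog lay above all 30. The log2 of the summed signals of the list was 17.25 on the RP58+/+ array and 16.17 on the RP58-/- array. In whole tissue, fewer muscle cells and less RNA of a gene per cell cannot be told apart.

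Markers of neighbouring tissues that passed the size rule did so the other way. Of 18 liver markers 13 were higher, of 8 lung epithelium markers 4, of 12 mesothelium markers 5 and of 13 leukocyte markers 3, with 0 lower in each list. Of all genes above the floor, 3.83% were higher and 6.51% lower. Bhmt (1.94), Hamp (1.94), Hpx (1.32) and Apoc1 (1.07) led the liver list, Krt19 (1.12) the mesothelium list and Camp (0.97) the leukocyte list, while albumin (Alb) was at 0.07. The log2 of their summed signals went from 16.77 to 17.40 for liver, 9.88 to 11.80 for lung epithelium, 13.50 to 14.06 for mesothelium and 14.88 to 15.35 for leukocytes. The lung sum rests on the surfactant gene Sftpc (7.65 and 11.30), without which it went from 9.53 to 10.03, with a median difference of 0.53 over the other 7 genes. Over genes above the floor, median signals were 12.24 and 12.99 for liver and 10.11 and 10.53 for leukocytes. They were 9.52 and 9.94 for mesothelium and 6.62 and 7.37 for lung epithelium. RNA of liver, leukocyte and mesothelium markers was thus read well above the floor on both arrays, the RP58+/+ array included. RMA signals have no 0, so markers under the floor could not be read as absent. The part of these tissues in the differences of the MyoD family was not tested. Other tissue-restricted bHLH factors, such as Tal1 of blood cells (0.04), were listed as further members of the protein class. Of 13 above the floor, 0 were lower and 0 higher, beside 6.51% and 3.83% of all genes. At those shares few of 13 genes would pass either way, so these counts show no contrast. The 13 differences ran from -0.42 to 0.25. Twist1, Twist2 and Msc also stand in the inhibitor list and Tcf21 in the upstream list.

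**Figure D5:**
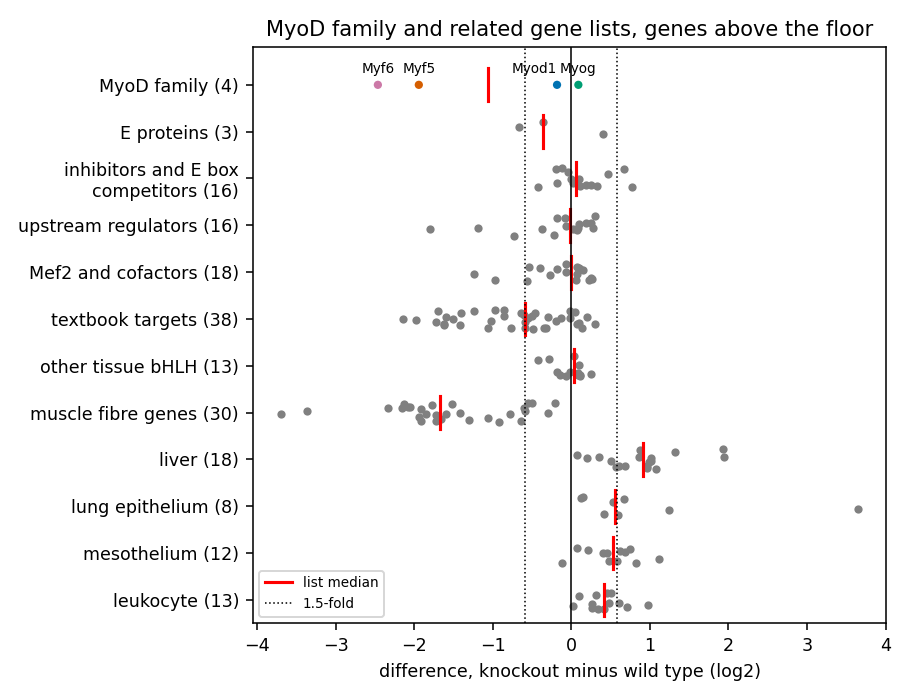
Differences (log2, knockout minus wild type, x axis) of the MyoD family and 11 related gene lists (y axis, number of genes above the floor in parentheses); each point is a gene, red bars are list medians and dotted lines mark 1.5-fold. Myf6 and Myf5 lie among the fibre genes (median -1.68), and Myod1 and Myog lie to the right of all of them, near the other tissue bHLH factors; the spike-in scaling would move all points right by 0.75.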

How the data were processed

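Total RNA from diaphragm muscle was profiled on 2 arrays, 1 per genotype label. The authors computed log2 signals with RMA, per the series' design text, and used Affymetrix Expression Console 1.1, per the submitters' processing notes. The deposited log2 values are already normalised between arrays, which removes any difference in total RNA, and RMA compresses differences of dim probe sets. The deposited probe sets match a larger array design than the design text names. Signals were used as deposited, with Python 3.11.15 and pandas 2.3.3. Groups come from the genotype labels. Genes were named from the platform annotation, and 209 of 219 list symbols matched. With 1 array per group, a 1.5-fold rule replaced a test, on genes whose mean signal reached the 40th percentile. The number of arrays limits the precision.

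The members and lists were chosen with earlier results of these data known. Named are all members, E proteins and Id genes, up to 4 members of each other list past the rule by size, the brightest member not past it, flanking genes and the 3 genes nearest in signal; of the fibre and other-tissue lists fewer are printed. Further genes (Pax3, Pax7, Six4, Msc, Sim2, Mdfi, Chrna1, Chrnb1, Chrng, Chrnd, Acta1, Ckm and those in the closing section) were named after their values were seen. Functions were tested on simulated data first. The 7 alternatives concern probe sets, floor, scaling and the size rule. A comparison of the member proteins was not made.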

Additional observations from a re-analysis of the deposited data

How the results depend on the processing

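The differences of Myf5 and Myf6 kept their direction and stayed past 1.5-fold under loess centring on mean signal (-1.97 and -2.44). The spike-in scaling, a fixed shift, also left both past it. The mean over probe sets and the removal of _s_at, _x_at and _a_at probe sets could not alter them. Each of these members is read by 1 probe set, which is of none of those kinds. A difference was held as kept when it moved by less than the SD of 0.28, and a count when within 1.5 times. By that rule all 33 results were kept under loess centring and all 29 with no floor. Some counts still changed under loess centring: lower targets went from 20 to 18, higher liver markers from 13 to 14 and higher lung markers from 4 to 3. The cause of the moves given next was not tested beyond what each setting's construction shows. Under the poly-A spike-in scaling the differences were 0.57 for Myod1, -1.19 for Myf5, -1.71 for Myf6 and 0.84 for Myog, the family median was -0.31, and 1 member counted as higher. That scaling shifts every value alike and placed 182 of all genes lower and 9990 higher. Under it 0 E proteins, 1 upstream regulator, 0 cofactors and 10 targets were lower, and 1 E protein, 13 inhibitors, 10 upstream regulators, 11 cofactors, 9 targets, 10 other bHLH factors, 8 lung, 12 mesothelium and 13 leukocyte markers and 9 flanking genes were higher. With the floor at the 60th percentile Myf5 dropped out, so that 1 of 3 members was lower, beside 7.40% of 10794 genes, and the median was -0.18. The mean over probe sets left 0 E proteins lower. Without _s_at, _x_at and _a_at probe sets 1 inhibitor and 0 flanking genes were higher and 1 other bHLH factor was lower, over fewer genes. With a 2-fold rule both Myf5 and Myf6 were still lower, beside 326 genes lower and 128 higher in all. That rule left 0 E proteins, 1 cofactor and 13 targets lower, and 0 inhibitors, 6 liver, 2 lung, 1 mesothelium and 0 leukocyte markers and 0 flanking genes higher.

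No paired analysis was possible because each group has 1 array, so leaving out an array was not an option either. The arrays give no spread between embryos, and Myf5 and both signals of the dimmer Myod1 probe set are limited by signal near background.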

Other observations

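Differences here are again RP58-/- minus RP58+/+ on the log2 scale, with the 2 signals in parentheses. Several related genes were read by probe sets whose differences varied in size or sign, and these were picked after their values were seen. For Dach1, a transcriptional cofactor gene, the brightest probe set gave 0.09 (5.94 and 6.02) and another -1.15 (6.22 and 5.08). Rbm24, an RNA-binding protein of muscle, had -1.50 at the brightest probe set and -0.14 at a dimmer one (6.77 and 6.64). Desmin (Des) was at -1.40 (10.75 and 9.35) and at 0.27 on a dimmer probe set. Mef2d was at -0.56, -0.19 and 0.25 on its 3 probe sets. The tendon factor gene Scx was at -0.29 and -0.68, so its dimmer probe set (6.55 and 5.87) was past 1.5-fold.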
